A study of Mus musculus with 12 samples.

Results

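Immediate early genes and heat shock genes were followed in mouse kidney proximal tubules, a set of 34 genes made of 18 immediate early genes and 16 chaperones or chaperone regulators. A member was measured by the brightest probe set that the array annotation gives its symbol alone, brightest meaning the highest mean over 12 arrays, and was kept if that probe set lay above 4 on the log2 scale on at least 3 arrays. Such a probe set was found for 32 of the 34, all but Hsp90ab1 and Hsf1, and 29 passed, namely 16 immediate early genes and 13 chaperones, out of 9744 genes that passed by the same rule. The tubules came from mice aged 20 weeks on a normal diet and were isolated with Percoll, and total RNA was hybridized to 1 Affymetrix array per sample. The 4 groups had 3 arrays each: dB/dB catalase-Tg mice, dB/dB mice, catalase-Tg mice and wild type mice. The dB/dB genotype is a loss-of-function mutation of the leptin receptor that leads to obesity and type II diabetes, and catalase-Tg mice carry a transgene for catalase, the enzyme that breaks down hydrogen peroxide. Work on this mouse line, not the labels, describes the transgene as rat catalase under the kidney androgen-regulated promoter, which is active in proximal tubule cells. Neither the sex of the mice nor whether the 3 samples of a group are separate animals is given by the labels, and the p-values therefore rest on a spread that could be technical. On wild type 1 and wild type 2 the female transcript Xist read 2.32 and 11.91, and Eif2s3y, from the Y chromosome, 8.13 and 2.30. Those arrays were thus not repeats of 1 animal, while the other groups gave no such sign.

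Immediate early genes are transcribed within minutes of a stimulus without new protein synthesis, from promoters already poised for serum response factor, CREB and related factors, and many encode transcription factors or brakes on the same signal. The heat shock response is driven by heat shock factor 1, which binds heat shock elements and raises chaperones that refold or hold damaged proteins, while other chaperones of the same families are made at high levels in unstressed cells. In kidney, both programs are known from ischaemic injury and from dissociated tissue.

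Promoter sequence was looked at because most immediate early genes and some of the chaperones shared a layout over the arrays. Windows from 250 bases before to 50 bases after the annotated start were taken from RefSeq on GRCm38.p6, and 15 of the 18 immediate early genes and 11 of the 16 chaperones had one. No window was matched for Egr1, Ier2, Myc, Cryab, Hsf1, Hsp90aa1, Hsp90ab1 and Hspa8. The core of the heat shock element, GAANNTTC, which reads the same on both strands, was present in 7.86% of all 32851 windows. Counted by gene it was in 9.04% of all 27025 genes with a window, in 9 of the 11 chaperones, which had 16 windows (Bag3, Dnaja1, Hspa1a, Hspa1b, Hspb1, Hspb8, Hspd1, Hspe1 and Hsph1) and in 1 of the 15 immediate early genes (Jun). The cAMP response element TGACGTCA, also the same on both strands, was in 2.03% of those genes and in Btg2 and Dusp1. The AP-1 site TGACTCA, searched on both strands, was in 5.95% of genes and in Bag3 alone among the members. The CArG box bound by serum response factor was in 1.81% of genes and in Zfp36. No match overlapped a match to another motif. The windows of 5 members are printed 5′ to 3′ with the matches in capitals, since they show the heat shock motif in chaperones that ran in opposite directions over the arrays and 2 of the 3 motifs found in immediate early genes.
Hspa1a (chr17:34972107-34972406, minus strand): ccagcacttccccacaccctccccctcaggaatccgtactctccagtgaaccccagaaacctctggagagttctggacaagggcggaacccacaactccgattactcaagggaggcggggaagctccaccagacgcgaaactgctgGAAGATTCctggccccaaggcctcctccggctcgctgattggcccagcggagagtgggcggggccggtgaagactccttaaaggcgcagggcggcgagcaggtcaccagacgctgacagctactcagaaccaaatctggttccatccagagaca
Hspb1 (chr5:135887669-135887968, plus strand): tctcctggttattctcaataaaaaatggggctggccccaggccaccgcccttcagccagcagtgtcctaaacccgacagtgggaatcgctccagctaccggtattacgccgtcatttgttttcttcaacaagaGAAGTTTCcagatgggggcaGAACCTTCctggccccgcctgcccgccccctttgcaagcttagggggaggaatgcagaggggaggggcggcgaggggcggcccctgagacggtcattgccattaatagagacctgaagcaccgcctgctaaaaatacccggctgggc
Hspd1 (chr1:55087883-55088182, minus strand): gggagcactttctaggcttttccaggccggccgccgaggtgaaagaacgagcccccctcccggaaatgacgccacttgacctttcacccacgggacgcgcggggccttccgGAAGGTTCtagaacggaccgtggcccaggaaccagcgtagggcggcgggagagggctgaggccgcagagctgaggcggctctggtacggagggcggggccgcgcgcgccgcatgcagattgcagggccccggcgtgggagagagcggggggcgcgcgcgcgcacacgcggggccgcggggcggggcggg
Dusp1 (chr17:26508423-26508722, minus strand): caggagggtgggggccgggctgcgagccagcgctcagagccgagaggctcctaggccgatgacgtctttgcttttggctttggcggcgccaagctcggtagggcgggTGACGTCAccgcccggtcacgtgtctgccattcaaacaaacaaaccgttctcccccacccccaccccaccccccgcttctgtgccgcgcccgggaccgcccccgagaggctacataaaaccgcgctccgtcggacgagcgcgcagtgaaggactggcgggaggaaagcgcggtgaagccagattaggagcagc
Zfp36 (chr7:28379179-28379478, minus strand): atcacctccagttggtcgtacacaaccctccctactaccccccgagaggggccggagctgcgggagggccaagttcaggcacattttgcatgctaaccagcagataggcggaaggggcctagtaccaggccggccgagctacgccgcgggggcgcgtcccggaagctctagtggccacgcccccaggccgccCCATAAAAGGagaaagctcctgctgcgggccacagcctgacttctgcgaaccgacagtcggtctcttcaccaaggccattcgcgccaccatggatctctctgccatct
The first base of the match lay at -104 from the start in Hspa1a, at -139 in Hspd1 and at -143 for the cAMP response element of Dusp1, and Hspb1 held 2 matches. The windows of Hspa1a and Hspa1b were equal at 296 of 300 positions. Hspd1 and Hspe1 lie head to head, and the match in the Hspe1 window is the same stretch of DNA read from the other strand. A second annotated Hspd1 start had no match in its window. These matches describe letters in the windows and not binding.

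Most immediate early members differed widely between arrays of the same genotype. The residual standard deviation (SD) within groups had a median of 1.18 on the log2 scale over the 16 immediate early genes, against 0.38 over the 18144 probe sets tested, and 11 of the 16 lay above the 90th percentile of all, 0.90. By group, the median SD of these genes was 1.04 in dB/dB catalase-Tg, 0.31 in dB/dB, 0.82 in catalase-Tg and 1.77 in wild type. The 3 dB/dB arrays were thus close together and the other groups each held an array that stood above the rest. Array 1 was the highest of its group for 16 of the 16 genes in dB/dB catalase-Tg, 15 in catalase-Tg and 16 in wild type, whereas over all probe sets tested array 1 was the highest of its group for 31.9%, 35.7% and 42.7% in the same order. Wild type 1 was the highest of all 12 arrays for 11 of the 16 genes, beside 17.3% of all probe sets tested. Wild type 2 was the lowest for 9, beside 5.6%, so that wild type held both ends of the range.

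**Figure D1:**
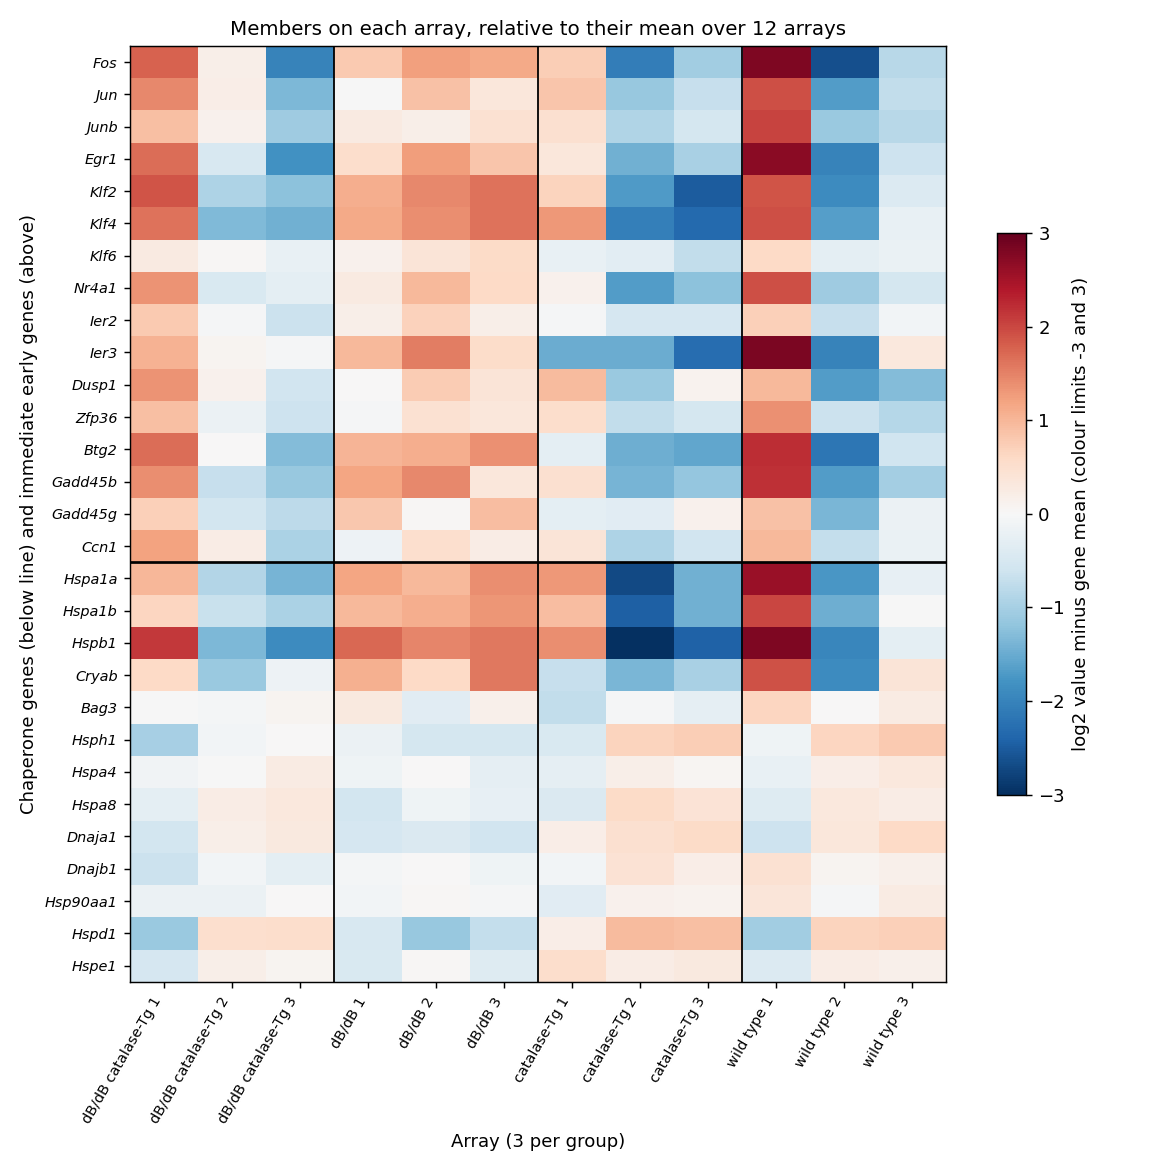
Heat map of the 29 members that passed the filter (rows) on the 12 arrays (columns, by group), as log2 value minus the gene's mean over the 12 arrays. Red marks array 1 of dB/dB catalase-Tg, catalase-Tg and wild type and all 3 dB/dB arrays for most immediate early genes and for Hspa1a, Hspa1b and Hspb1, and the other arrays are pale or blue.

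No member passed the test in any comparison. limma, fitted to all 18144 probe sets with Benjamini-Hochberg adjustment over them, called 0.0% of probe sets at adjusted p under 0.05 in dB/dB against wild type, 0.022% in catalase-Tg against wild type, 0.00551% in dB/dB catalase-Tg against dB/dB, 0.0276% in dB/dB catalase-Tg against catalase-Tg and 0.00551% in the interaction of dB/dB and the transgene. At an unadjusted p under 0.05 the members were Ier3 and Bag3 in catalase-Tg against wild type and Ier3 and Dnajb1 in dB/dB catalase-Tg against catalase-Tg, with 0 members in the other comparisons. Over all probe sets that limit was passed by 4.16% in dB/dB against wild type and 9.15% in catalase-Tg against wild type. It was passed by 7.5% in dB/dB catalase-Tg against dB/dB, 6.86% in dB/dB catalase-Tg against catalase-Tg and 1.64% in the interaction. The members' counts of 0, 2, 0, 2 and 0 of 29 were level with that background or below it. The adjusted p-values of the members ran from 0.767 to 0.924 in dB/dB against wild type, from 0.532 to 0.981 in catalase-Tg against wild type, from 0.636 to 0.988 in dB/dB catalase-Tg against dB/dB and from 0.700 to 0.991 in dB/dB catalase-Tg against catalase-Tg. The comparisons share arrays, so their values are given side by side and are not independent of each other. In tissue samples like these, fewer cells of a type and less RNA per cell cannot be told apart.

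Among the AP-1 genes, whose products pair to bind AP-1 sites, Fos read 10.29, 8.68 and 6.50 in dB/dB catalase-Tg, 9.31, 9.74 and 9.64 in dB/dB, 9.25, 6.43 and 7.47 in catalase-Tg and 11.32, 5.87 and 7.68 in wild type, with the arrays of each group in the order 1, 2 and 3. The dB/dB arrays lay close together, between the highest and the lowest wild type array. The difference of dB/dB from wild type was 1.28 (SE 1.32), adjusted p = 0.775 in limma, and that of dB/dB catalase-Tg from dB/dB was -1.07 (SE 1.32), adjusted p = 0.777. Jun, the usual partner of Fos, read 9.64, 8.41 and 6.85 in dB/dB catalase-Tg, 8.20, 9.08 and 8.55 in dB/dB, 9.03, 7.08 and 7.51 in catalase-Tg and 10.14, 6.52 and 7.46 in wild type. The order of its arrays within each group was that of Fos, and its difference of dB/dB from wild type was 0.57 (SE 0.94). Junb, a second partner, ranged from 4.03 on wild type 2 to 7.15 on wild type 1. Fosb was above 4 on 2 arrays only, dB/dB catalase-Tg 1 at 4.46 and wild type 1 at 5.42, and so lay just outside the filter, while Klf2 and Gadd45b passed with 11 arrays each above 4.

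The zinc finger and nuclear receptor transcription factors had the same layout. Egr1, which links growth factor signals to later genes, read 8.09, 5.93 and 4.58 in dB/dB catalase-Tg, 6.93, 7.65 and 7.23 in dB/dB, 6.74, 4.95 and 5.43 in catalase-Tg and 9.11, 4.40 and 5.79 in wild type. Its values in dB/dB stood above wild type 2 and wild type 3 and below wild type 1. Klf2, a factor known for its response to shear stress in endothelium, read 7.96, 5.15 and 4.84 in dB/dB catalase-Tg, 7.17, 7.52 and 7.71 in dB/dB, 6.75, 4.37 and 3.58 in catalase-Tg and 7.95, 4.19 and 5.66 in wild type. Klf4, a relative found in epithelium and endothelium, read 8.52, 5.56 and 5.46 in dB/dB catalase-Tg, 8.04, 8.28 and 8.53 in dB/dB, 8.19, 4.84 and 4.57 in catalase-Tg and 8.82, 5.23 and 6.67 in wild type. Both had 3 high dB/dB arrays, 1 high and 2 low arrays in catalase-Tg with or without dB/dB, and wild type spread over the same span. In dB/dB against wild type the differences were 1.54 (SE 1.10) for Klf2 and 1.38 (SE 1.16) for Klf4, and in dB/dB catalase-Tg against dB/dB they were -1.49 (SE 1.10) and -1.77 (SE 1.16). Nr4a1, an orphan nuclear receptor, read 7.63, 5.82 and 6.00 in dB/dB catalase-Tg, 6.55, 7.26 and 6.89 in dB/dB, 6.41, 4.60 and 5.05 in catalase-Tg and 8.23, 5.22 and 5.76 in wild type. Klf6, an injury-induced factor in kidney epithelium, varied less and read 7.26, 7.01 and 6.76 in dB/dB catalase-Tg, 7.11, 7.36 and 7.55 in dB/dB, 6.76, 6.67 and 6.25 in catalase-Tg and 7.57, 6.69 and 6.78 in wild type. Every dB/dB catalase-Tg array of Klf6 lay above every catalase-Tg array, the nearest pair being equal at 6.76 after rounding, at a difference of 0.45 (SE 0.26), adjusted p = 0.77, whereas its other 3 tested probe sets overlapped. Myc, a growth-linked factor, stayed between 2.30 and 3.42 and was not tested.

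Genes that restrain signals or growth included Dusp1, a phosphatase that switches off MAP kinases, which read 10.61, 9.38 and 8.67 in dB/dB catalase-Tg, 9.27, 10.01 and 9.65 in dB/dB, 10.21, 8.13 and 9.37 in catalase-Tg and 10.22, 7.58 and 7.96 in wild type. It was highest on dB/dB catalase-Tg 1, and catalase-Tg 1 was level with wild type 1. Btg2, an antiproliferative gene, read 8.22, 6.55 and 5.26 in dB/dB catalase-Tg, 7.57, 7.63 and 7.92 in dB/dB, 6.26, 5.08 and 5.0 in catalase-Tg and 8.77, 4.37 and 5.96 in wild type. Gadd45b, a stress sensor upstream of p38 and JNK kinases, read 7.02, 4.93 and 4.49 in dB/dB catalase-Tg, 6.81, 7.05 and 5.95 in dB/dB, 6.10, 4.22 and 4.46 in catalase-Tg and 7.81, 3.95 and 4.59 in wild type. In dB/dB against wild type, Dusp1 differed by 1.06 (SE 0.75), Btg2 by 1.34 (SE 1.00) and Gadd45b by 1.15 (SE 0.99), none past the threshold. Ranges over the 12 arrays ran from 6.64 on wild type 3 to 8.85 on wild type 1 for Zfp36, which destabilizes inflammatory mRNAs, from 6.43 on wild type 2 to 8.73 on dB/dB 3 for Gadd45g, from 4.87 on wild type 2 to 6.36 on dB/dB catalase-Tg 1 for Ier2, and from 5.49 on dB/dB catalase-Tg 3 to 7.65 on dB/dB catalase-Tg 1 for Ccn1, a secreted matrix protein. Among these 4, Gadd45g had its highest array in dB/dB.

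Ier3, an early response gene that modulates survival signals, had the largest differences that involve catalase-Tg among the immediate early members. It read 10.11, 9.16 and 9.04 in dB/dB catalase-Tg, 10.04, 10.62 and 9.62 in dB/dB, 7.59, 7.58 and 6.80 in catalase-Tg and 11.90, 7.08 and 9.39 in wild type. All catalase-Tg arrays lay at 7.59 or below, as did wild type 2, while the dB/dB catalase-Tg arrays all lay above 9. Here array 1 of catalase-Tg did not stand apart. The difference of dB/dB catalase-Tg from catalase-Tg was 2.11 (SE 0.93), adjusted p = 0.718, without overlap of the groups, and that of catalase-Tg from wild type was -2.13 (SE 0.93), adjusted p = 0.538, with overlap. With wild type 2 and wild type 3 left out, which leaves wild type 1 as the lone wild type array assumed to vary like the others, the catalase-Tg difference from wild type was -4.58 (adjusted p = 0.00351 in limma), and that of dB/dB catalase-Tg from catalase-Tg, still 2.11, had an adjusted p of 0.0469. With array 1 left out of the 3 groups other than dB/dB, Ier3 differed by -1.04 (adjusted p = 0.673) in catalase-Tg against wild type. With endothelial, fibroblast and podocyte markers as a covariate the same difference was -0.87 (adjusted p = 0.697), and that of dB/dB catalase-Tg from catalase-Tg was 1.28 (adjusted p = 0.728).

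**Figure D2:**
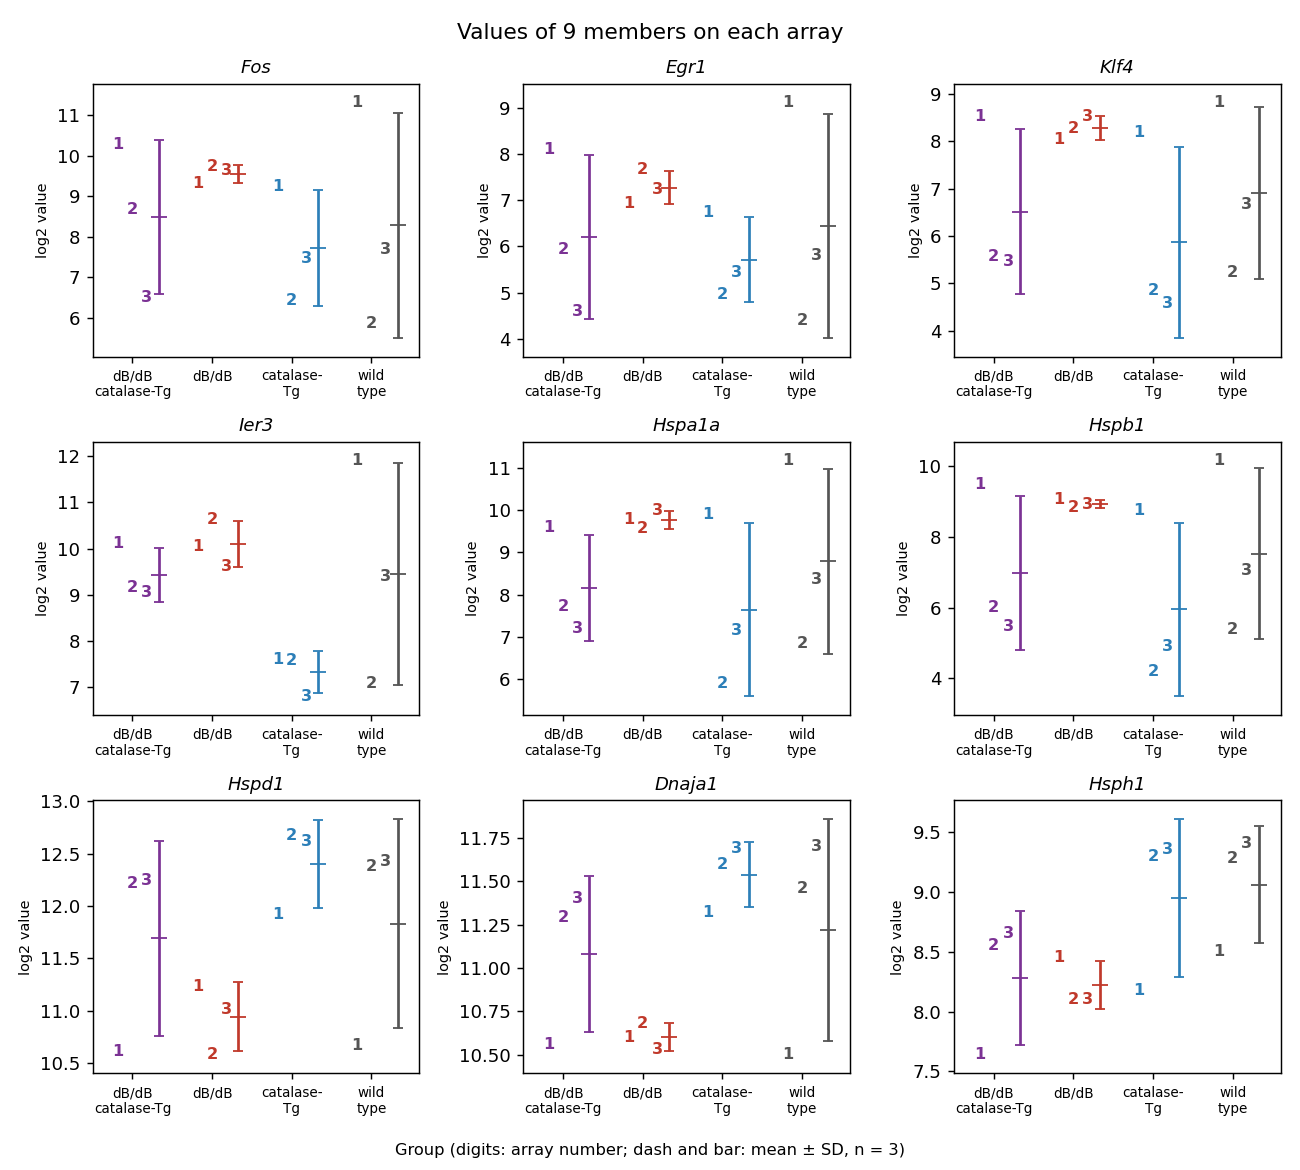
Log2 values of 9 members on each array, by group, with digits for the array number and a dash and bar for the mean ± SD (n = 3). For Fos, Egr1, Klf4, Hspa1a and Hspb1 the dB/dB arrays sit together inside the wild type range, and for Hspd1, Dnaja1 and Hsph1 array 1 of dB/dB catalase-Tg and of wild type sits low.

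Counted as a class in dB/dB against wild type, 16 of the 16 immediate early genes had a difference above 0, with a median of 0.73 on the log2 scale, from 0.17 for Ccn1 to 1.54 for Klf2, and 6 exceeded 1. Over all probe sets the median was -0.11 and 38.0% lay above 0. The agreement in sign depended on the probe set and the filter. A weaker tested probe set stood at -0.23 for Ccn1 and at -0.18 for Klf6, while the remaining tested ones lay above 0. Fosb, outside the filter, stood at -0.82. None of the 16 was higher in every dB/dB array than in every wild type array, where 2.52% of all probe sets were higher without overlap and 8.91% lower. In dB/dB catalase-Tg against dB/dB, 0 of the 16 lay above 0 with a median of -0.54, against 48.3% above 0 and a median of -0.02 over all probe sets. Again no gene of the class separated the groups, with a background of 4.87% higher and 11.1% lower. In that comparison the weaker Ccn1 probe set stood at 0.24 and Fosb at 0.48. In catalase-Tg against wild type, 2 of 16 lay above 0 (Dusp1 and Gadd45g), the median was -0.49, and none separated the groups, with 5.74% of probe sets higher and 7.8% lower without overlap. In dB/dB catalase-Tg against catalase-Tg, 15 of 16 lay above 0, the median was 0.51, and Ier3 and Klf6 were higher without overlap, 2 of 16 beside 6.67% of all probe sets, and none lower, beside 9.35%.

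Those class medians turn on single arrays. For dB/dB against wild type the immediate early median was 1.74 with wild type 1 left out, 0.04 with wild type 2 left out and -1.09, the other direction, with wild type 2 and wild type 3 left out. With dB/dB catalase-Tg set against dB/dB it was -0.99 with dB/dB catalase-Tg 1 left out and -0.19 with dB/dB catalase-Tg 3 left out. For catalase-Tg against wild type it ran from -1.10 with wild type 2 left out to 0.40 with wild type 1 left out, and for dB/dB catalase-Tg against catalase-Tg from -0.14 with dB/dB catalase-Tg 1 left out to 1.12 with dB/dB catalase-Tg 3 left out, so that both changed direction. Wild type 2 had the female transcript Xist at 11.91 and Eif2s3y, from the Y chromosome, at 2.30, wild type 3 had Xist at 6.72 and Eif2s3y at 7.89, and on the other 10 arrays Xist stayed between 2.31 and 2.67. Genotype and this sign of sex cannot be told apart for the comparison of dB/dB with those 2 wild type arrays.

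The 13 chaperones divided into a group that tracked the immediate early genes over most arrays, though not within dB/dB, and a group that did not. The division of Hspa1a, Hspa1b, Hspb1 and Cryab from the other 9 was made after their values had been seen, and no test rests on it. The median residual SD was 1.47 in the 4 and 0.30 in the other 9.

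Hspa1a and Hspa1b encode the stress-inducible Hsp70, and because the genes are near-identical copies their probe sets may share signal and each value is uncertain. Hspa1a read 9.58, 7.71 and 7.19 in dB/dB catalase-Tg, 9.77, 9.56 and 9.99 in dB/dB, 9.90, 5.89 and 7.14 in catalase-Tg and 11.17, 6.85 and 8.35 in wild type. Hspa1b read 11.46, 10.15 and 9.87 in dB/dB catalase-Tg, 11.80, 11.91 and 12.15 in dB/dB, 11.74, 8.38 and 9.38 in catalase-Tg and 12.82, 9.36 and 10.81 in wild type. Wild type 1 was the highest array for both and catalase-Tg 2 the lowest. All dB/dB catalase-Tg arrays of Hspa1b lay below all dB/dB arrays, 1 of 13 chaperones beside the 11.1% of probe sets lower without overlap, at a difference of -1.46 (SE 0.94), adjusted p = 0.642. Of the other 2 tested probe sets of Hspa1b, one overlapped, with dB/dB catalase-Tg 1 at 10.24 and dB/dB 2 at 10.15. Hspa1a overlapped narrowly between those groups, with dB/dB catalase-Tg 1 at 9.58 and dB/dB 2 at 9.56.

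The small heat shock proteins hold unfolded proteins for the Hsp70 system. Hspb1 read 9.47, 6.00 and 5.46 in dB/dB catalase-Tg, 9.06, 8.82 and 8.92 in dB/dB, 8.75, 4.19 and 4.91 in catalase-Tg and 10.15, 5.38 and 7.06 in wild type. Its group means were 6.98 ± 2.18 in dB/dB catalase-Tg, 8.93 ± 0.12 in dB/dB, 5.95 ± 2.45 in catalase-Tg and 7.53 ± 2.42 in wild type (SD, n = 3 each), so that the dB/dB arrays agreed closely while the arrays of every other group spread widely. Its differences were 1.40 (SE 1.47) in dB/dB against wild type and -1.96 (SE 1.47) in dB/dB catalase-Tg against dB/dB, neither past the threshold (adjusted p = 0.778 and 0.656). Cryab, alpha B-crystallin, read 8.41, 6.71 and 7.67 in dB/dB catalase-Tg, 8.89, 8.41 and 9.39 in dB/dB, 7.13, 6.45 and 6.84 in catalase-Tg and 9.73, 5.93 and 8.19 in wild type. Its catalase-Tg arrays were close together, below wild type 1 and wild type 3 and above wild type 2. A second small heat shock gene, Hspb8, stayed between 2.85 and 3.14 by its brightest probe set and was not tested, although another of its probe sets reached 4.81 on dB/dB 3 and 4.67 on wild type 1.

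The mitochondrial chaperonin Hspd1 and its lid Hspe1, which share a promoter region, ran the other way. Hspd1 read 10.61, 12.22 and 12.24 in dB/dB catalase-Tg, 11.23, 10.58 and 11.01 in dB/dB, 11.92, 12.67 and 12.62 in catalase-Tg and 10.67, 12.38 and 12.43 in wild type. The dB/dB arrays, dB/dB catalase-Tg 1 and wild type 1 were the low arrays, all at 11.23 or below, and the other 7 were at 11.92 or above. Hspe1 read 11.91, 12.59 and 12.51 in dB/dB catalase-Tg, 11.97, 12.46 and 12.04 in dB/dB, 12.94, 12.65 and 12.70 in catalase-Tg and 12.01, 12.64 and 12.58 in wild type. Its catalase-Tg arrays all lay above the wild type arrays and above the dB/dB catalase-Tg arrays, by 0.35 (SE 0.25) over wild type, while dB/dB catalase-Tg differed from catalase-Tg by -0.42 (SE 0.25). Its second probe set overlapped in both comparisons, at 8.17, 8.91 and 8.81 in dB/dB catalase-Tg, 9.0, 8.94 and 8.82 in catalase-Tg and 8.50, 8.86 and 8.95 in wild type. Hspd1 differed by -0.89 (SE 0.54) in dB/dB against wild type and by 0.75 (SE 0.54) in dB/dB catalase-Tg against dB/dB.

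Several cytosolic chaperones were also low on the dB/dB arrays, dB/dB catalase-Tg 1 and wild type 1, and Hsph1 and Hspa8 were low on catalase-Tg 1 as well. Dnaja1, a J-domain partner of Hsp70, read 10.56, 11.29 and 11.40 in dB/dB catalase-Tg, 10.60, 10.68 and 10.53 in dB/dB, 11.32, 11.60 and 11.69 in catalase-Tg and 10.50, 11.46 and 11.70 in wild type. Hsph1, a nucleotide exchange factor of Hsp70, read 7.64, 8.55 and 8.65 in dB/dB catalase-Tg, 8.45, 8.10 and 8.10 in dB/dB, 8.18, 9.30 and 9.36 in catalase-Tg and 8.50, 9.28 and 9.41 in wild type. Hspa8, the constitutive Hsp70, read 13.28, 13.78 and 13.87 in dB/dB catalase-Tg, 13.01, 13.43 and 13.31 in dB/dB, 13.12, 14.15 and 13.97 in catalase-Tg and 13.18, 13.89 and 13.79 in wild type. Hspa8 overlapped between dB/dB and wild type, and the weakest of its 4 probe sets had the opposite layout on array 1, while the other 2 followed the brightest. Hsph1 lay lower in every dB/dB array than in every wild type array by both of its probe sets, at -0.84 (SE 0.39), adjusted p = 0.767.

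Dnajb1, a heat-induced J-domain protein, read 7.82, 8.39 and 8.17 in dB/dB catalase-Tg, 8.41, 8.48 and 8.35 in dB/dB, 8.39, 8.90 and 8.67 in catalase-Tg and 8.92, 8.55 and 8.63 in wild type. It too was lower in dB/dB without overlap, at -0.29 (SE 0.20), so that 2 of 13 chaperones were lower without overlap beside 8.91% of all probe sets, but its second probe set overlapped. Bag3, a co-chaperone of Hsp70 induced by heat shock factor 1, read 5.15, 5.10 and 5.25 in dB/dB catalase-Tg, 5.44, 4.81 and 5.31 in dB/dB, 4.42, 5.13 and 4.88 in catalase-Tg and 5.81, 5.17 and 5.41 in wild type. Its catalase-Tg arrays were all below the wild type arrays, at -0.65 (SE 0.25), adjusted p = 0.532, and the Bag3 layout resembled neither that of Hspa1a nor that of Hspd1. Hsp90aa1, the inducible cytosolic Hsp90, ranged only from 11.23 on catalase-Tg 1 to 11.95 on wild type 1, and Hspa4, an Hsp110 relative, from 9.34 on catalase-Tg 1 to 9.93 on wild type 3. By these brightest probe sets the 2 genes had differences of at most 0.24 in size in the 4 comparisons. In dB/dB against wild type other tested probe sets differed by -1.36, -0.52 and -0.09 for Hspa4 and by -0.37 and -0.13 for Hsp90aa1. The -1.36 came from a weak probe set, at 5.54, 3.05 and 4.58 in dB/dB.

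Over the class, 4 of 13 chaperones lay above 0 in dB/dB against wild type, namely Hspa1a, Hspa1b, Hspb1 and Cryab, and the other 9 lay below, with a median of -0.26 beside -0.11 over all probe sets. With each array centred on its own median, the median of all probe sets in that comparison was 0.01, the chaperone median was -0.14 and the immediate early median 0.85. In dB/dB catalase-Tg against dB/dB, 6 of 13 lay above 0 with a median of -0.02. In catalase-Tg against wild type, 4 of 13 lay above 0 with a median of -0.12, 1 (Hspe1) was higher without overlap beside 5.74% of all probe sets and 1 (Bag3) lower beside 7.8%. In dB/dB catalase-Tg against catalase-Tg, 6 of 13 lay above 0 with a median of -0.07, and Hspe1 alone was lower without overlap beside 9.35%.

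The dB/dB difference was also compared between backgrounds with and without the transgene. The interaction passed for no member, all at adjusted p = 1.0. Its median was -0.13 over the immediate early genes and 0.15 over the chaperones, beside 0.01 over all probe sets. The immediate early median changed size and direction with single arrays, at -1.25 without wild type 1, -0.85 without dB/dB catalase-Tg 1, 0.51 without wild type 2, 0.42 without dB/dB catalase-Tg 3 and 0.34 without catalase-Tg 1. It was -1.41 without all 3 first arrays, -0.95 with array weights and 1.66 without wild type 2 and wild type 3.

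The first arrays of dB/dB catalase-Tg, catalase-Tg and wild type had weights of 0.172, 0.287 and 0.227 in limma, the lowest of their groups, and earlier results of these data had marked them for leaving out. They are also the arrays on which most immediate early genes were highest in their groups, so leaving them out lowers the spread of the members and changes their means, and the calls that follow describe the other 9 arrays. Without them, 12 of the 16 immediate early genes rose in dB/dB against wild type 2 and wild type 3, beside 9.58% of all probe sets higher and 17.3% lower. Wild type 2 and wild type 3 are the arrays with Xist signal, so genotype and that sign of sex cannot be told apart in these calls. Klf2 rose by 2.54 (SE 0.43, adjusted p = 0.00698), Gadd45b by 2.33 (adjusted p = 0.00476) and Fos by 2.79 (adjusted p = 0.0269), and the others were Jun, Junb, Egr1, Dusp1, Klf4, Zfp36, Btg2, Nr4a1 and Gadd45g. Ier2, Ier3, Klf6 and Ccn1 did not pass. Among chaperones Hspa1a, Hspa1b and Hspb1 rose, Hspb1 by 2.71 (adjusted p = 0.00715), and Hsph1, Dnaja1, Hspa8 and Hspd1 fell, Hspd1 by 1.47 (adjusted p = 0.0033). With wild type 2 and wild type 3 left out instead, so that wild type 1 stood alone, all 12 immediate early genes lay below 0 in this comparison, as did Hspa1a, Hspa1b and Hspb1, and Dnaja1, Hspa8 and Hspd1 lay above 0. Fos was then at -1.75 and Egr1, which had risen by 2.17, at -1.84.

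In the same fit of 9 arrays, 6 immediate early genes fell in dB/dB catalase-Tg against dB/dB, beside 11.7% of probe sets lower and 16.1% higher. They were Egr1, Klf2, Klf4, Btg2, Nr4a1 and Gadd45b, with Klf4 at -2.77 (SE 0.38), adjusted p = 0.00331. Hspa1a, Hspa1b and Hspb1 fell as well, Hspb1 by 3.20 (adjusted p = 0.00386), and Dnaja1, Hspa8 and Hspd1 rose, Hspd1 by 1.29 (adjusted p = 0.00431). With all arrays and the covariate of other-cell markers in the model, the 6 immediate early genes and Hspa1a, Hspa1b and Hspb1 lay above 0 in this comparison, and Hspa8 and Hspd1 below. No member was called in catalase-Tg against wild type (0.171% of all probe sets called), in dB/dB catalase-Tg against catalase-Tg (0.127%) or in the interaction (0.788%).

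**Figure D3:**
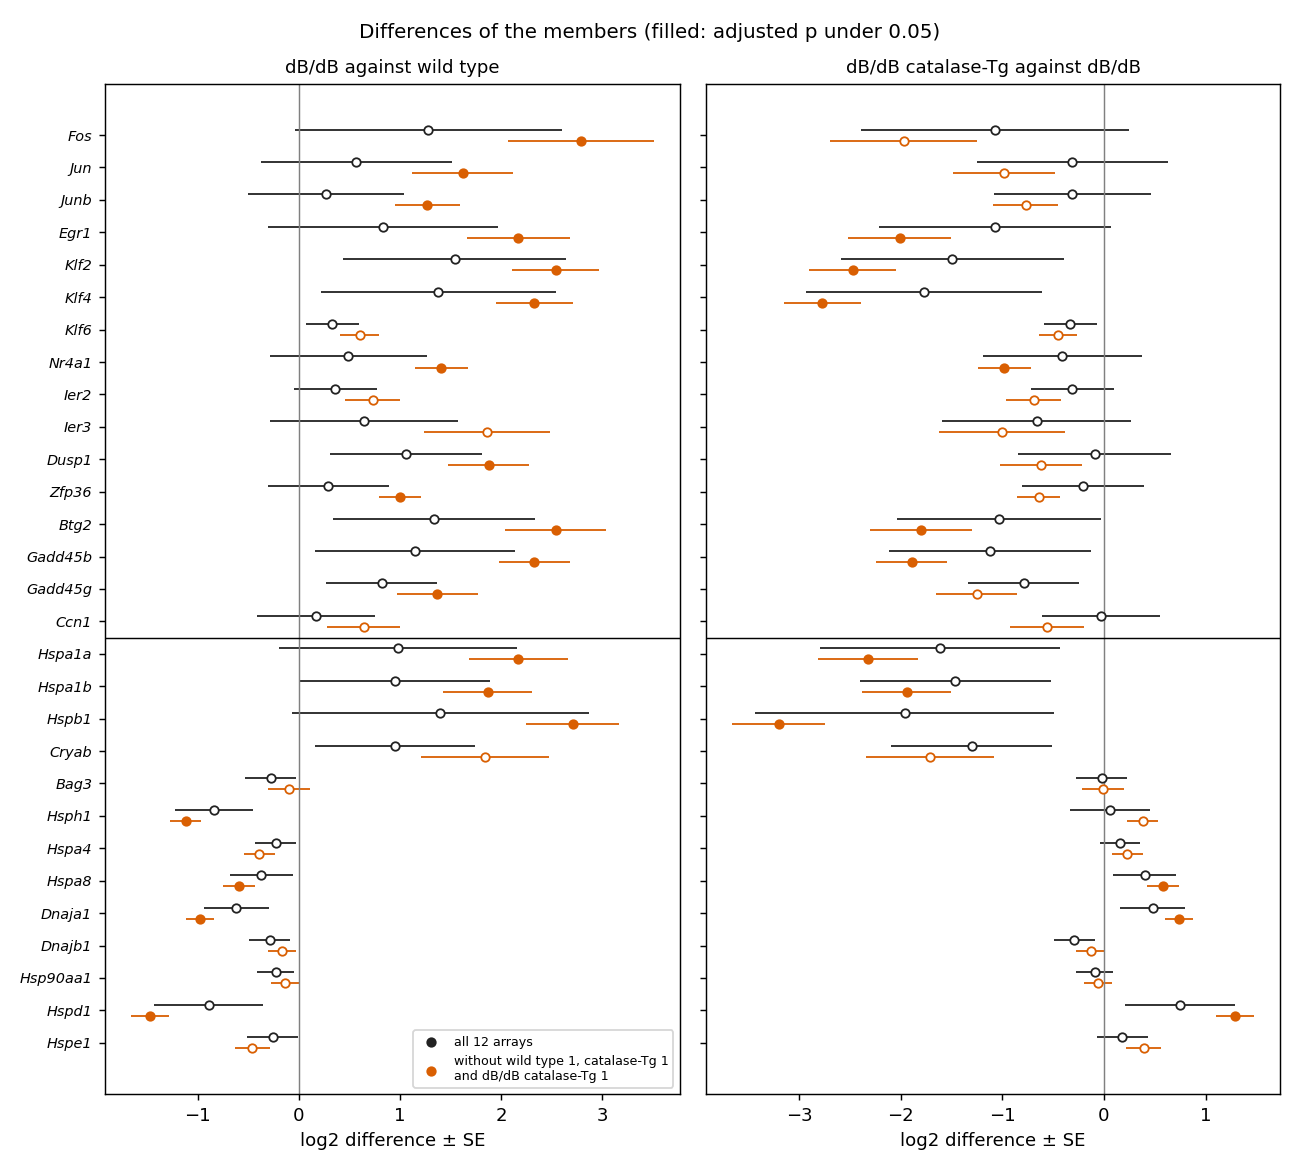
Log2 differences ± SE of the 29 members for dB/dB against wild type (left) and for the transgene within dB/dB (right, dB/dB catalase-Tg minus dB/dB), with all 12 arrays (black) and without array 1 of the other 3 groups (orange). Filled points passed an adjusted p of 0.05. With all arrays 0 of the 29 members did, beside 0 (left) and 1 (right) of the 18144 probe sets. On the other 9 arrays 19 (left) and 12 (right) of the 29 did, beside 4875 and 5043 of the probe sets.

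Endothelial, podocyte and fibroblast markers were high on many of the same arrays, but not in the same order within dB/dB. A list score is the mean difference of its genes from their means over the 12 arrays. The immediate early score was 1.25, -0.23 and -0.97 in dB/dB catalase-Tg, 0.51, 0.89 and 0.72 in dB/dB, 0.28, -1.21 and -1.02 in catalase-Tg and 1.74, -1.46 and -0.52 in wild type. The score of 14 endothelial markers, all 14 listed, was 1.51, -0.81 and -1.17 in dB/dB catalase-Tg, 1.40, 0.78 and 1.80 in dB/dB, -0.18, -1.78 and -1.64 in catalase-Tg and 1.55, -1.46 and 0.00 in wild type. Both scores were thus high on the dB/dB arrays and, within each other group, highest on array 1. Within dB/dB, array 2 had the highest immediate early score and the lowest endothelial, podocyte and fibroblast scores, at 0.78, 0.55 and 0.78. The score of Hspa1a, Hspa1b, Hspb1 and Cryab was also lowest there, at 1.24, 1.03 and 1.47 on the dB/dB arrays. On wild type 3 the podocyte score was 1.87 and the immediate early score -0.52. The log2 of the summed endothelial signal ran from 9.10 to 11.97 in dB/dB catalase-Tg, 11.48 to 12.35 in dB/dB, 8.30 to 10.37 in catalase-Tg and 8.93 to 12.25 in wild type. Fibroblast and mural markers (8 of 12 above the filter, with Lum at the floor and Col1a1, Col3a1 and Dcn below the filter) ran from 8.11 to 12.54, 11.29 to 11.97, 7.70 to 10.17 and 8.15 to 11.77 in the same order of groups. Podocyte markers (7 of the 9 listed were measured) ran from 8.85 to 11.66, 11.19 to 13.28, 8.95 to 9.36 and 8.68 to 13.09. A covariate was taken as the mean over the tested markers of these 3 lists pooled, so that the 14 endothelial markers weighed most. With it in the model, no member was called and the immediate early median in dB/dB against wild type was -0.19. That covariate lay between 0.72 and 2.03 on the dB/dB arrays and between -1.71 and -0.68 on the catalase-Tg arrays. In part, therefore, the covariate and the groups cannot be told apart.

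Other lists differed in how they moved with these arrays. On catalase-Tg 1 the immediate early score exceeded that of catalase-Tg 2 and catalase-Tg 3 while the podocyte score, -2.34, and the loop and distal tubule score, -2.40, were the lowest of the 12 arrays. Loop and distal tubule markers (9 of 9) ran from 15.54 to 16.11 in dB/dB catalase-Tg, 16.18 to 16.40 in dB/dB, 13.35 to 14.18 in catalase-Tg and 14.11 to 16.57 in wild type. Leukocyte markers passed the filter for 4 of 13, with Cd68, Adgre1, C1qa, Cd3e and Cd79a among those below it, and the score of those 4 was 0.61, 0.37 and -1.02 in dB/dB catalase-Tg, -0.33, 1.31 and 0.07 in dB/dB, 0.85, -1.02 and -0.84 in catalase-Tg and 0.75, -1.11 and 0.36 in wild type. Within every group this leukocyte score ordered the arrays as the immediate early score did, with array 2 highest in dB/dB and array 1 elsewhere. On dB/dB 1, however, it lay below 0. Collecting duct markers passed for 5 of 10, with Aqp2 at the floor. Their score ran from -0.14 to 1.33 in dB/dB catalase-Tg and from 0.35 to 1.25 in dB/dB. It ran from -0.71 to -0.62 in catalase-Tg and from -0.84 to -0.07 in wild type. The log2 of the summed signal of 16 proximal tubule markers, all 16 listed, ran from 16.54 to 17.41, 16.40 to 16.57, 16.93 to 17.37 and 15.31 to 17.16 in the same order. Their score was -0.22, 0.70 and 0.72 in dB/dB catalase-Tg, -0.31, -0.47 and -0.18 in dB/dB, -0.32, 0.63 and 0.62 in catalase-Tg and -1.93, 0.55 and 0.22 in wild type. It was thus low on the dB/dB arrays and lowest on array 1 in each other group, the reverse of the immediate early score. The markers did not agree on catalase-Tg 1, where 8 of the 16 were the lowest of their group and 5 the highest. Array 1 was the lowest for 13 in dB/dB catalase-Tg and for 16 in wild type. On catalase-Tg 1, Kap was at 8.46, beside 15.26 and 15.22 on arrays 2 and 3, while Slc34a1, at 14.07, was the highest of the 12 arrays. As a measure of RNA quality, the 3′ minus 5′ difference of the beta-actin control lay between 1.85 on wild type 1 and 2.50 on wild type 3. That of the Gapdh control was 0.38, -0.06 and 0.09 in dB/dB catalase-Tg, 0.12, 0.61 and 0.19 in dB/dB, 0.12, 0.04 and -0.11 in catalase-Tg and 0.18, -0.01 and 0.16 in wild type, highest on array 1 in each group but dB/dB. The part of the proximal tubule and leukocyte markers and of RNA quality in the members' differences was not tested.

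**Figure D4:**
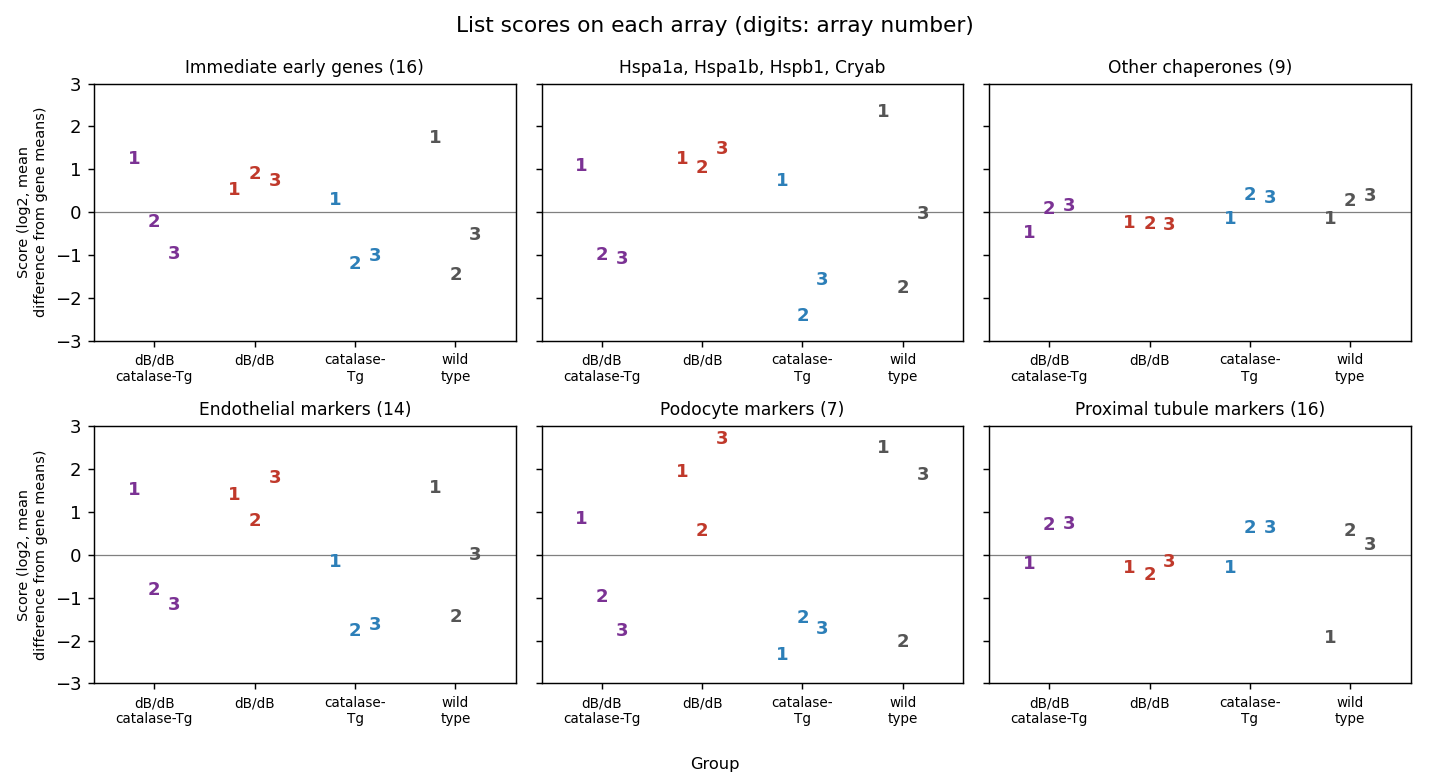
Score of each list on each array (log2, mean difference of its genes from their means over the 12 arrays), with digits for the array number. The immediate early score and that of Hspa1a, Hspa1b, Hspb1 and Cryab are high on dB/dB and, in each other group, highest on array 1, as is the endothelial score, and the score of the other 9 chaperones stays between -0.49 and 0.40.

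Further genes of both pathways came from lists drawn up beside the members. Of 43 other immediate early genes 31 were tested and 0 were called in any comparison, with 22 above 0 in dB/dB against wild type (median 0.12), 6 in catalase-Tg against wild type (-0.50), 9 in dB/dB catalase-Tg against dB/dB (-0.35) and, set against catalase-Tg, 27 (0.31). Ccn2, a secreted relative of Ccn1, read 8.75, 6.62 and 5.85 in dB/dB catalase-Tg, 10.26, 8.76 and 11.15 in dB/dB, 5.66, 5.75 and 5.20 in catalase-Tg and 10.35, 4.62 and 8.51 in wild type, with a dB/dB catalase-Tg difference from dB/dB of -2.98 (SE 1.27, adjusted p = 0.636). Sgk1, a kinase that promotes sodium transport, read 9.81, 8.98 and 10.66 in dB/dB catalase-Tg, 10.14, 9.80 and 11.10 in dB/dB, 7.97, 6.47 and 6.91 in catalase-Tg and 10.32, 8.09 and 8.88 in wild type, with a dB/dB catalase-Tg difference from catalase-Tg of 2.70 (SE 0.64, adjusted p = 0.475). Every catalase-Tg array of Sgk1 lay below every array of the other groups, and the catalase-Tg arrays of Ccn2 lay below all others except wild type 2. The remaining genes of smallest p were Srf at -0.51 (SE 0.17) in catalase-Tg against wild type, Fosl2 at 0.65 (SE 0.28) in dB/dB catalase-Tg against catalase-Tg, Mcl1 at 0.32 (SE 0.16) in dB/dB against wild type and Tob1 at 0.52 (SE 0.32) in the interaction.

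Of 48 other chaperone genes 40 were tested and 0 were called, with 11, 16, 23 and 14 above 0 in the same order of comparisons and medians of -0.24, -0.07, 0.04 and -0.11. Bag4, an Hsp70 co-chaperone, differed by -1.23 (SE 0.34, adjusted p = 0.441) in catalase-Tg against wild type, and its relative Bag2 by 1.12 (SE 0.30, adjusted p = 0.544) in dB/dB catalase-Tg against catalase-Tg. Bag5 stood at 0.64 (SE 0.29) in the interaction. In dB/dB against wild type Fkbp4, a partner of Hsp90, stood at -0.64 (SE 0.26) and Hspa4l at -0.52 (SE 0.20), on the side of Hsph1 and Hspd1. In dB/dB catalase-Tg against dB/dB, Dnajc7 stood at -0.47 (SE 0.20).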

How the data were processed

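Total RNA from 12 samples of mouse proximal tubules was measured on Affymetrix arrays, 3 per group. The values are log2 expression per probe set as deposited by the authors. GCRMA, a method of background correction and normalization, and limma were used per the submitters' processing notes, their versions not given. Nothing further was normalized here. Precision is limited by how many arrays there are.

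The array holds 45101 probe sets, of which 64 are controls and were not tested. The annotation gives 1 gene symbol to 34945 of the others, several to 932 and none to 9160. The 18144 probe sets above 4 on at least 3 arrays were fitted in limma 3.58.1 (R 4.3.3) with a mean for each group and all 12 arrays, and p-values were adjusted over all of them by Benjamini-Hochberg at a threshold of 0.05. The members, lists and left-out arrays were chosen with earlier results of these data known. All 34 members are named, and from the other lists any gene called and the 2 of smallest p in each comparison. Xist and Eif2s3y were read as signs of sex.

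By the rule that every correlation exceeds 0.1, equal replicate numbers in the labels deviated together for catalase-Tg and wild type (0.40, 0.20 and 0.31) and for dB/dB catalase-Tg and catalase-Tg (0.61, 0.45 and 0.43). They did not for dB/dB and wild type (0.17, 0.15 and 0.10) or for dB/dB catalase-Tg and dB/dB (-0.05, -0.13 and 0.11). Each array correlated best with the array of its own number only for dB/dB and wild type, so these correlations do not establish a pairing. The fit was tested on simulated data. Alternatives covered normalization, filter, array weights, spread estimate, samples in the fit, the replicate number, a cell marker covariate, probe sets per gene and arrays left out. Promoter windows are RefSeq's on GRCm38.p6, and protein sequences were not used here.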

Additional observations from a re-analysis of the deposited data

Results flagged for a closer look

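Bag3 was marked because its difference between dB/dB and non-dB/dB mice ran in opposite directions with and without the transgene. The 3 dB/dB arrays, at 5.44, 4.81 and 5.31, all lay below the wild type mean of 5.46, and the 3 dB/dB catalase-Tg arrays, at 5.15, 5.10 and 5.25, all lay above the catalase-Tg mean of 4.81. The interaction estimate was 0.63 (SE 0.35) on the log2 scale, and limma's test of it did not pass the threshold (adjusted p = 1.0). Groups of 3 arrays are too small for a search for single outlying arrays.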

How the results depend on the processing

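With all 12 arrays 0 members were called in any comparison, and the same held with arrays centred on their medians, with quantile normalization, with either other filter, with a trended and robust spread, with the groups of each comparison alone, with the cell marker covariate and with the mean of a gene's probe sets. Array weights gave 14 of the 29 members, beside 6989 of the 18144 probe sets, when dB/dB catalase-Tg was set against dB/dB. They gave 2 of the 29, beside 883 probe sets, when dB/dB catalase-Tg was set against catalase-Tg. The fits with arrays left out tested the same 29 members and 18144 probe sets. Leaving out array 1 of the 3 groups other than dB/dB gave 19 members and 4875 probe sets for dB/dB against wild type, 12 and 5043 with dB/dB catalase-Tg set against dB/dB, 0 and 31 for catalase-Tg against wild type, 0 and 23 for dB/dB catalase-Tg against catalase-Tg, and 0 and 143 for the interaction. Leaving out both wild type 2 and wild type 3 gave 2 members and 2180 probe sets for catalase-Tg against wild type, 1 and 174 for dB/dB catalase-Tg against catalase-Tg, and 0 probe sets for the interaction. Single arrays left out in turn gave 0 to 1 members for catalase-Tg against wild type, the 1 being called when wild type 2 was left out, and 0 members otherwise. The probe sets then numbered 0 to 107 for dB/dB against wild type (107 without wild type 1), 3 to 270 for catalase-Tg set against wild type (270 when wild type 2 was left out), 0 to 4 with dB/dB catalase-Tg set against dB/dB, 1 to 22 for dB/dB catalase-Tg against catalase-Tg, and 0 to 2 for the interaction. With no filter, 6 probe sets were called for dB/dB against wild type, 14 for catalase-Tg against wild type, 3 with dB/dB catalase-Tg set against dB/dB and 6 for the interaction. Fits of only the groups compared gave 0 for catalase-Tg against wild type and 2 with dB/dB catalase-Tg set against dB/dB. For dB/dB catalase-Tg against catalase-Tg, 5 with all arrays, the count was 1 with centred arrays, 3 with quantile normalization and 1 above 6 on at least 3 arrays. The replicate block gave 0 probe sets in the interaction, against 1 without it, and changed no member's call in any comparison. The named genes had 205 differences over the 5 comparisons, none of which passed with all arrays. Of these, 81 turned their sign under the cell marker covariate, 57 without wild type 2 and wild type 3 and 21 without the 3 first arrays. None of those that turned passed the threshold. Of the 12 immediate early genes that rose on the 9 arrays in dB/dB against wild type, 12 lay below 0 without wild type 2 and wild type 3 and 7 under the covariate. The causes were not tested, and leaving arrays out changes the spread by construction.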
